A study of Mus musculus with 16 samples.

Results

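The genes described here are 10 that hair cells of the cochlea use to signal: *Otof*, *Slc17a8*, *Cacna1d* and *Cabp2* of the ribbon synapse, *Chrna9* and *Chrna10* of the efferent synapse, *Slc26a5* of the outer hair cell membrane, the calcium-binding protein genes *Ocm* and *Calb2*, and *Rasd2*, which encodes a small GTPase. They were chosen by symbol from the 19937 genes to which the platform table gives a probeset of their own, and each of the 10 has 1 probeset, so no member was lost and none was filtered out. The mice were FVB/NCrl. Tg1MDW/1MDW mice (Tg/Tg below) are homozygous for a transgene, of a single line, in which the human GFAP promoter drives *Mir183*, *Mir96* and *Mir182*, and WT littermates carry no transgene. RNA came from cochleae of postnatal day 18 (P18; 3 Tg/Tg and 3 WT samples) and from the microdissected organ of Corti, the OC, of postnatal day 5 (P5; 5 Tg/Tg and 5 WT samples), with 1 MoGene 1.0 array for each of the 16 samples. The GFAP promoter is active in supporting cells and in glia, not in a single cell type, and age and dissection change together between the P18-cochlea and the P5-OC. The study asked how raised levels of these miRNAs affect gene expression in the inner ear.

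Inner hair cells release glutamate at ribbon synapses, where vesicles are filled by VGLUT3 (*Slc17a8*), calcium enters through Cav1.3 channels (*Cacna1d*) whose inactivation is limited by CaBP2, and otoferlin (*Otof*) serves as the calcium sensor of release. Cholinergic fibres from the brainstem act on hair cells through receptors built of the alpha9 and alpha10 subunits (*Chrna9*, *Chrna10*), first on inner hair cells before hearing starts and later on outer hair cells. Outer hair cells change length with voltage through prestin (*Slc26a5*), and they hold much oncomodulin (*Ocm*). In mice, hearing begins between the ages that were compared here, and these genes are commonly used as signs of hair cell maturation.

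The mature products of the transgene are shown because their seeds set which transcripts they can pair with. They are RefSeq sequences on the minus strand of GRCm38.p6, written 5′ to 3′, with the seed (bases 2 to 8) in capitals, and lie at chr6:30169711-30169732 (miR-183), chr6:30169506-30169528 (miR-96) and chr6:30165962-30165986 (miR-182).
miR-183-5p: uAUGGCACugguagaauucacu
miR-96-5p: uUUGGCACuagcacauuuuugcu
miR-182-5p: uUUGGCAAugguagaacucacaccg
These positions are those of the endogenous genes, not of the transgene. The 3 seeds differ from each other, those of miR-96 and miR-182 only in their last base. Sites for them in the 10 transcripts were not analysed here.

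Sample names and other label fields conflict in age, tissue and genotype, and groups followed the names. The mean log2 signal of *Mir183*, *Mir96*, *Mir182* and the transgene's *Prm1* element lay between 7.64 and 8.48 on the 8 Tg/Tg arrays and between 4.24 and 4.96 on the 8 WT arrays, so the names fit the transgene. Pairs of arrays correlated at 0.990 to 0.995 within P18 and at 0.973 to 0.992 within P5. Whether an array holds 1 animal or a pool was not given in the sources used here, so the p-values reflect how far these samples scatter, and that scatter may be technical. All values below are log2 signals as deposited, and a difference of 1 on that scale is a change of 2-fold. A probe's level was set against no other probe's. As a reference for hair cells, 12 further genes (*Myo7a*, *Myo6*, *Pou4f3*, *Atoh1* and others) were followed, with no sample free of hair cells to compare. Their mean signal was 6.53 to 6.60 in P18 Tg/Tg, 6.65 to 6.66 in P18 WT, 7.05 to 7.41 in P5 Tg/Tg and 7.04 to 7.31 in P5 WT.

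Tg/Tg mice were first compared with WT within each age. In the P18-cochlea, prestin had a higher signal in Tg/Tg than in WT on every array, but neither it nor any other of the 10 genes passed the test over all 34760 probesets (limma, Benjamini-Hochberg adjusted p under 0.05), against 0.443% of all probesets. *Slc26a5* gave 7.59, 7.65 and 7.68 in P18 Tg/Tg, against 7.10, 7.17 and 7.18 in P18 WT. The groups did not overlap, with an SD of 0.05 in Tg/Tg and 0.04 in WT. At P18, 27.6% of all probesets had groups that did not overlap. The log2 difference was 0.49 (standard error 0.13, 95% interval 0.21 to 0.78, unadjusted p = 0.0022, adjusted p = 0.18, limma), or 1.41-fold. The fit shares 1 variance among all 16 arrays, and *Slc26a5* had an SD of 0.26 in P5 Tg/Tg and 0.12 in P5 WT. The adjusted p was 0.025 when P18 was fitted alone (1.37% of all probesets called) and 0.0023 with array weights (6.27%). In the other settings it ran from 0.052, with P5 replicates 1 and 2 against 3 to 5 as a term, to 0.32, relative to the hair cell genes. It was 0.24 with the Y-linked mean as a further term, and 0.083 to 0.51 with one array left out. Y-linked genes had a mean of 7.65 to 7.66 in P18 Tg/Tg and 7.22 to 7.34 in P18 WT, between the high and low P5 arrays. This mean did not overlap between P18 Tg/Tg and P18 WT. Whether the P18 samples mix animals of both sexes was not given in the sources used here. The SD within a P18 group may therefore not be the spread between single animals, and this was not tested.

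Among the other genes, the P18 arrays of the 2 genotypes did not overlap for *Ocm*, *Otof* and *Chrna10*. With *Slc26a5* this makes 4 of 10 genes, against 27.6% of all probesets. *Ocm* gave 10.57, 10.54 and 10.51 in P18 Tg/Tg, against 10.32, 10.15 and 10.25 in P18 WT, a log2 difference of 0.30 (interval -0.28 to 0.88, adjusted p = 0.86, limma). *Otof* gave 6.84, 7.0 and 7.06 in Tg/Tg, against 7.18, 7.32 and 7.34 in WT, a log2 difference of -0.31 (interval -0.79 to 0.18, adjusted p = 0.80). *Chrna10* gave 5.87, 6.0 and 5.98 in Tg/Tg, against 6.27, 6.22 and 6.18 in WT, a log2 difference of -0.27 (interval -0.86 to 0.31, adjusted p = 0.88). For *Slc17a8*, *Cacna1d*, *Cabp2*, *Chrna9*, *Calb2* and *Rasd2* the groups overlapped, and differences ran from -0.14 (*Cabp2*) to 0.10 (*Cacna1d*). The median over the 10 genes was 0.01, beside -0.02 over all probesets and -0.12 over the 12 hair cell genes. Lists for other tissues moved with genotype at P18. Skeletal muscle markers had a mean of 9.05 to 9.14 in Tg/Tg and 6.66 to 6.69 in WT (8 of 9 called higher), and markers of cerebellar and cochlear nucleus neurons 5.74 to 5.80 in Tg/Tg and 6.60 to 6.63 in WT (6 of 10 called lower). Their part in the values of the 10 genes was not tested.

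**Figure D1:**
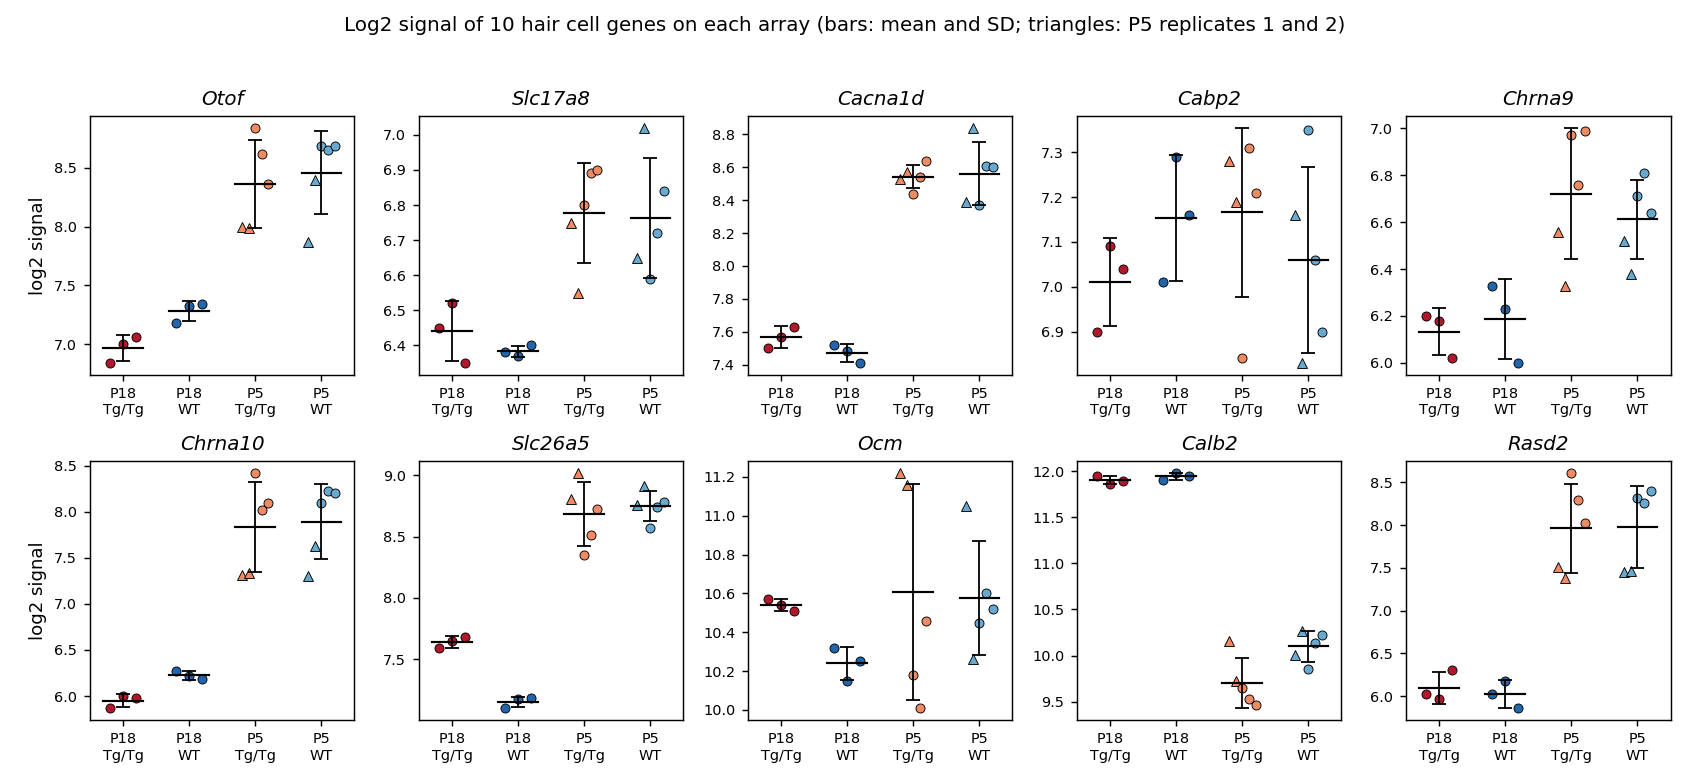
Log2 signal (y axis, a scale of its own for each gene) of the 10 genes on each of 16 arrays, by group (x axis), with the group mean and SD as bars and P5 replicates 1 and 2 as triangles. At P18, *Slc26a5* lies between 7.59 and 7.68 in Tg/Tg and between 7.10 and 7.18 in WT, and *Calb2* is the gene with higher signal at P18 than at P5 in both genotypes.

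In the P5-OC, the 10 genes overlapped between genotypes without exception, and none passed the test (0.61% of all probesets did, and 1.67% had groups that did not overlap). *Calb2*, the gene of calretinin, which is found in inner hair cells and in some spiral ganglion neurons, came nearest. It gave 10.16, 9.72, 9.65, 9.53 and 9.46 in P5 Tg/Tg, against 10.01, 10.27, 9.85, 10.14 and 10.22 in P5 WT. Apart from Tg/Tg replicate 1, every Tg/Tg array lay below every WT array. The log2 difference was -0.39 (standard error 0.11, interval -0.63 to -0.15, unadjusted p = 0.0039, adjusted p = 0.16, limma). Without Tg/Tg replicate 1 it was -0.50 (adjusted p = 0.014), and without replicates 1 and 2 of both genotypes, a choice made after seeing the data, -0.52 (adjusted p = 0.041). Tg/Tg replicate 1 was also the P5 Tg/Tg array with a high mean of Y-linked genes (8.86, against 3.90 to 4.06 on the other 4), whereas in P5 WT these genes were at 8.61 to 8.96 on 4 arrays and at 3.95 on replicate 1. When the fit included that mean as a further term, the *Calb2* difference was -0.19 (adjusted p = 0.77). Spiral ganglion markers had a mean of 8.27 to 8.86 in P5 Tg/Tg and 8.59 to 9.15 in P5 WT, and Schwann cell myelin markers 7.57 to 8.07 in Tg/Tg and 9.47 to 9.58 in WT. Their part in the *Calb2* value was not tested. The other 9 genes differed by -0.10 (*Otof*) to 0.11 (*Cabp2* and *Chrna9*), and the interval of *Slc26a5* at P5 was -0.28 to 0.16 around -0.06. At an unadjusted p under 0.05, 1 of 10 genes passed at each age, *Slc26a5* at P18 (8.77% of all probesets passed so) and *Calb2* at P5 (16.4%).

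Whether genotype acted differently at the 2 ages was tested as the P18 effect minus the P5 effect. None of the 10 passed, against 0.596% of all probesets. *Slc26a5* had the largest difference of the 10, 0.56 (standard error 0.17, interval 0.20 to 0.92, unadjusted p = 0.005, adjusted p = 0.18, limma), and it passed with array weights (0.49, adjusted p = 0.029; 9.3% of all probesets were called). *Calb2* followed with 0.35 (interval -0.05 to 0.75, adjusted p = 0.41), and the other 8 ranged from -0.25 (*Cabp2*) to 0.27 (*Ocm*).

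**Figure D2:**
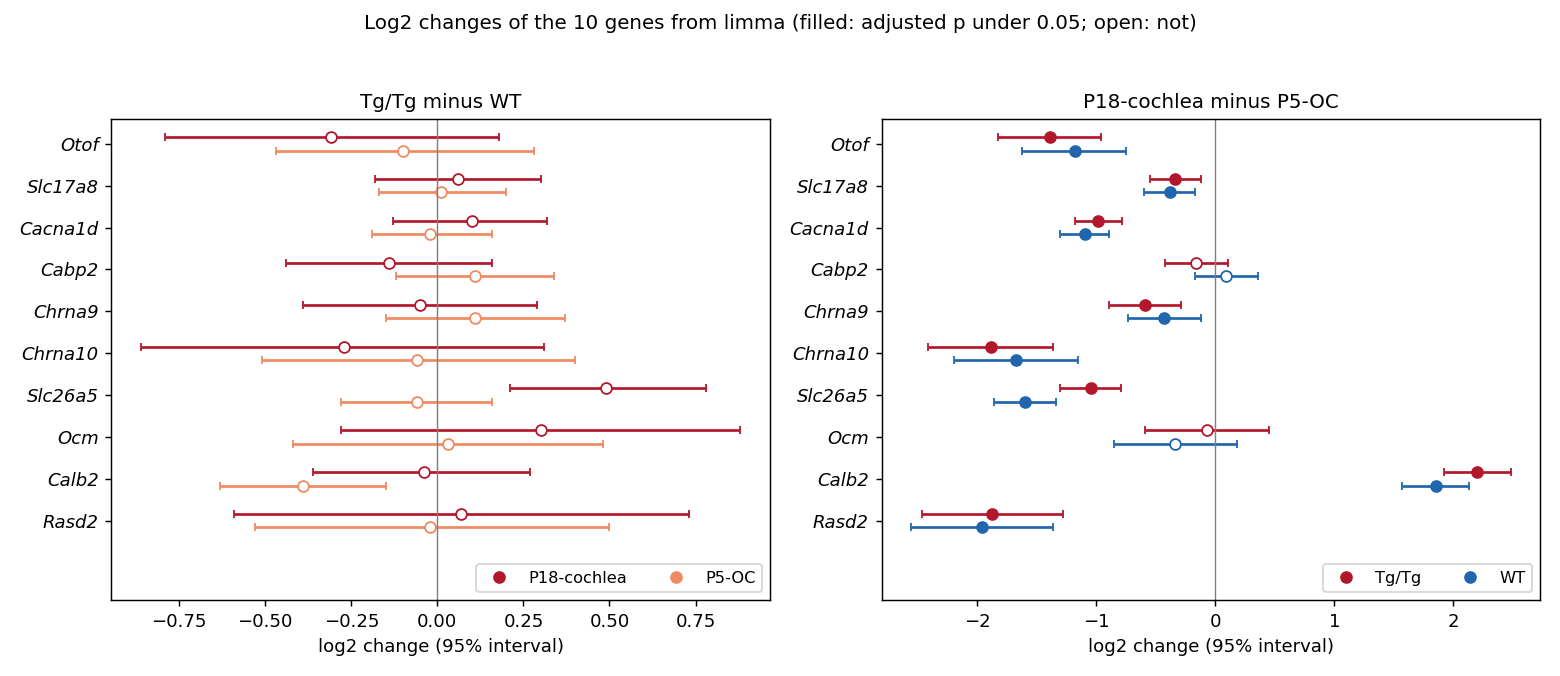
Log2 change (x axis, with 95% interval) of each gene from limma, for Tg/Tg minus WT at P18 and P5 on the left and for P18-cochlea minus P5-OC in Tg/Tg and WT on the right. No point on the left is filled (adjusted p under 0.05), and the intervals of *Slc26a5* at P18 (0.21 to 0.78) and *Calb2* at P5 (-0.63 to -0.15) do not reach 0; on the right, 8 of 10 genes are filled in each genotype, *Calb2* to the right of 0 and 7 to the left.

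The second question was how the genes differed between the P18-cochlea and the P5-OC. In each genotype 7 of 10 genes fell, *Calb2* rose, and *Cabp2* and *Ocm* did not pass. For all probesets, 21.1% were higher and 33% lower at P18 in Tg/Tg, and 19.8% were higher and 30.2% lower in WT. The median log2 change of the 10 genes was -0.78 in Tg/Tg and -0.76 in WT, beside -0.11 in Tg/Tg and -0.06 in WT over all probesets. In these bulk samples, fewer cells of a type and less RNA per cell cannot be told apart. Bone and marrow markers had a mean of 10.77 to 10.99 at P18 and 7.36 to 8.52 at P5, and all 7 of those measured were higher at P18 in both genotypes. The 12 hair cell genes themselves had median changes of -0.61 in Tg/Tg (1 higher, 10 lower) and -0.57 in WT (1 higher, 8 lower), and each gene's change relative to these medians is given with its values below.

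The efferent receptor genes fell at P18, *Chrna10* steeply. *Chrna10* gave 5.87 to 6.0 in P18 Tg/Tg, against 7.31, 7.33, 8.42, 8.02 and 8.09 in P5 Tg/Tg, and it gave 6.18 to 6.27 in P18 WT, against 7.30, 7.63, 8.10, 8.23 and 8.20 in P5 WT. No P18 array reached any P5 array. The log2 change was -1.88 in Tg/Tg (standard error 0.25, adjusted p = 9.9e-06, limma) and -1.67 in WT (standard error 0.25, adjusted p = 3.3e-05), or 3.69-fold lower in Tg/Tg and 3.18-fold lower in WT. Relative to the hair cell genes it was -1.27 in Tg/Tg and -1.10 in WT. *Chrna9*, its partner subunit, gave 6.02 to 6.2 in P18 Tg/Tg and 6.33 to 6.99 in P5 Tg/Tg, and 6.0 to 6.33 in P18 WT and 6.38 to 6.81 in P5 WT. Its log2 change was -0.59 in Tg/Tg (adjusted p = 0.0025) and -0.43 in WT (adjusted p = 0.020), a fall that was no larger than that of the hair cell genes, with 0.03 in Tg/Tg and 0.14 in WT relative to their medians. The WT call was lost without P18 WT replicate 3 (-0.33, adjusted p = 0.11).

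Of the ribbon synapse genes, *Otof* and *Cacna1d* fell by about 2-fold or more. *Otof* gave 6.84 to 7.06 in P18 Tg/Tg, against 8.0, 7.99, 8.84, 8.62 and 8.36 in P5 Tg/Tg, and 7.18 to 7.34 in P18 WT, against 7.87, 8.40, 8.69, 8.65 and 8.69 in P5 WT. Its log2 change was -1.39 in Tg/Tg (standard error 0.20, adjusted p = 3.1e-05) and -1.18 in WT (standard error 0.20, adjusted p = 0.00014). *Cacna1d*, with little spread, gave 7.50, 7.57 and 7.63 in P18 Tg/Tg, against 8.44 to 8.64 in P5 Tg/Tg, and 7.52, 7.48 and 7.41 in P18 WT, against 8.37 to 8.84 in P5 WT. The log2 change was -0.98 in Tg/Tg (standard error 0.09, adjusted p = 3.9e-07) and -1.09 in WT (standard error 0.09, adjusted p = 1.0e-07). Both genes also lay below the hair cell medians, with differences of -0.78 in Tg/Tg and -0.61 in WT for *Otof* and of -0.36 in Tg/Tg and -0.52 in WT for *Cacna1d*. *Slc17a8* fell less, by 0.34 on the log2 scale in Tg/Tg (adjusted p = 0.010) and by 0.38 in WT (adjusted p = 0.0050), and its direction turned relative to the hair cell genes (0.28 in Tg/Tg and 0.19 in WT). Its values were 6.35 to 6.52 in P18 Tg/Tg and 6.55 to 6.90 in P5 Tg/Tg, and 6.37 to 6.40 in P18 WT and 6.59 to 7.02 in P5 WT. *Cabp2* did not pass in either genotype (-0.16 in Tg/Tg, adjusted p = 0.31, and 0.09 in WT, adjusted p = 0.57), and its arrays overlapped between the ages, with 6.90 to 7.29 at P18 and 6.83 to 7.35 at P5. Relative to the hair cell genes its change was 0.46 in Tg/Tg and 0.67 in WT.

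Prestin fell in both genotypes. *Slc26a5* gave 7.59 to 7.68 in P18 Tg/Tg, against 8.81, 9.02, 8.35, 8.51 and 8.73 in P5 Tg/Tg, and changed by -1.04 on the log2 scale (standard error 0.12, adjusted p = 2.6e-06). It gave 7.10 to 7.18 in P18 WT, against 8.76, 8.91, 8.57, 8.74 and 8.78 in P5 WT, a change of -1.60 (standard error 0.12, adjusted p = 1.9e-08). These falls of 2.06-fold in Tg/Tg and 3.03-fold in WT differ by the 0.56 given above, which did not pass the test. Relative to the hair cell medians the change was -0.43 in Tg/Tg and -1.03 in WT, and the Tg/Tg call was lost when each array's mean over the hair cell genes was subtracted (-0.38, adjusted p = 0.057, limma). *Ocm* did not pass (-0.07 in Tg/Tg, adjusted p = 0.83, and -0.34 in WT, adjusted p = 0.28), and its P5 arrays ran from 10.01 to 11.22 in Tg/Tg and from 10.26 to 11.05 in WT, around the P18 values of 10.51 to 10.57 in Tg/Tg and 10.15 to 10.32 in WT. Relative to the hair cell medians the *Ocm* change was 0.55 in Tg/Tg and 0.24 in WT. Without P5 replicates 1 and 2, an alternative chosen after seeing the data, *Ocm* was higher at P18 in Tg/Tg (0.32, adjusted p = 0.025) and lower in WT (-0.28, adjusted p = 0.046).

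*Calb2* was the gene that rose. It gave 11.95, 11.86 and 11.90 in P18 Tg/Tg, against 9.46 to 10.16 in P5 Tg/Tg, and 11.91, 11.98 and 11.95 in P18 WT, against 9.85 to 10.27 in P5 WT. The log2 change was 2.20 in Tg/Tg (standard error 0.13, adjusted p = 1.7e-09) and 1.85 in WT (standard error 0.13, adjusted p = 1.1e-08), or 4.59-fold in Tg/Tg and 3.6-fold in WT, and 2.81 in Tg/Tg and 2.42 in WT relative to the hair cell medians. Spiral ganglion markers moved the same way between the ages, with 7 of 11 called higher and 2 lower in each genotype and a median change of 1.21 in Tg/Tg and 0.59 in WT. Their part in the *Calb2* rise was not tested. *Rasd2*, best known as the striatal GTPase Rhes, gave 6.02, 5.96 and 6.31 in P18 Tg/Tg, against 7.51, 7.38, 8.61, 8.30 and 8.02 in P5 Tg/Tg, and 6.03, 6.18 and 5.86 in P18 WT, against 7.45, 7.46, 8.32, 8.26 and 8.40 in P5 WT. Its log2 change was -1.87 in Tg/Tg (standard error 0.28, adjusted p = 3.6e-05) and -1.96 in WT (standard error 0.28, adjusted p = 2.2e-05), and no P18 array reached a P5 array. Relative to the hair cell medians it was -1.26 in Tg/Tg and -1.38 in WT.

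Further genes of the same functions were followed in a list of 30, of which 29 were measured. None was called for genotype at P18, at P5 or for the difference between these effects at an adjusted p under 0.05. At an unadjusted p under 0.05, 4 passed at P18 (13.8% of the 29, beside 8.77% of all probesets), 9 at P5 (31%, beside 16.4%) and 6 for the difference (20.7%, beside 14.3%). At P18, 9 of the 29 had higher and 20 lower values in Tg/Tg, with a median of -0.08. *Kcnn2*, which encodes the SK2 channel that calcium from the alpha9alpha10 receptor opens, had a mean of 8.35 ± 0.08 in Tg/Tg and 7.98 ± 0.09 in WT (SD, n = 3 each), a log2 difference of 0.37 (adjusted p = 0.14, limma). *Ikzf2*, the outer hair cell transcription factor helios, had 6.94 ± 0.08 in P18 Tg/Tg and 6.62 ± 0.17 in P18 WT (SD, n = 3 each), a difference of 0.32 (adjusted p = 0.35). The other 2 genes with an unadjusted p under 0.05 lay lower in Tg/Tg. *Bsn*, which encodes the presynaptic scaffold protein bassoon, had 6.19 ± 0.04 in P18 Tg/Tg and 6.41 ± 0.04 in P18 WT (SD, n = 3 each), a difference of -0.22 (adjusted p = 0.46). *Strc*, an outer hair cell gene as *Ikzf2* is, had 5.72 ± 0.12 in P18 Tg/Tg and 5.95 ± 0.08 in P18 WT (SD, n = 3 each), a difference of -0.24 (adjusted p = 0.49). *Calb1* had the lowest difference of the list at P18, -0.39 (adjusted p = 0.74). At P5, 6 of the 29 had higher and 23 lower values in Tg/Tg, with a median of -0.11, beside -0.01 over all probesets. The presynaptic scaffold gene *Rims1* had the smallest adjusted p there, with a log2 difference of -0.45 (adjusted p = 0.13, limma). Of the others with an unadjusted p under 0.05, *Rims2*, *Rimbp2*, *Cabp1*, *Dnm1*, *Syt4* and *Tmc1* lay lower in Tg/Tg, and *Insm1* (0.36) and *Rapsn* (0.28) higher. At P5, spiral ganglion markers had a median difference of -0.34, with 9 of 11 negative and 36.4% at an unadjusted p under 0.05. The 12 hair cell genes had a median of 0.05, with 4 of 12 negative and 0% at that p. Y-linked genes had a median of -2.87. The part of neurons or of sex in these values was not tested. The genes named in this paragraph were picked after their values were seen.

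Between the ages the list moved in both directions. In Tg/Tg, 9 of 29 were higher and 12 lower at P18, and in WT 8 were higher and 11 lower, with medians of -0.08 in Tg/Tg and -0.24 in WT. Among the steepest falls were those of *Calb1* (-2.27 in Tg/Tg and -1.79 in WT), which encodes the calcium buffer calbindin, *Lmod3* (-1.43 in Tg/Tg and -1.78 in WT), *Tmc1* (-1.29 in Tg/Tg and -1.64 in WT), a subunit gene of the mechanotransduction channel, *Nrxn3* (-1.78 in Tg/Tg and -1.52 in WT), a presynaptic adhesion gene, and *Strc* (-1.37 in Tg/Tg and -1.17 in WT), whose product stereocilin links outer hair cell stereocilia. Among the steepest rises were those of *Atp2a3* (1.40 in Tg/Tg and 1.41 in WT), a calcium pump of the endoplasmic reticulum, *Pvalb* (1.77 in Tg/Tg and 1.29 in WT), which encodes parvalbumin, *Dnm1* (1.34 in Tg/Tg and 1.16 in WT), of vesicle retrieval, *Kcnn2* (1.21 in Tg/Tg and 0.84 in WT) and *Rapsn* (0.77 in Tg/Tg and 0.99 in WT), which clusters acetylcholine receptors. All of these passed in both genotypes (limma, adjusted p under 0.05). Parvalbumin and dynamin 1 are also abundant in neurons, and *Pvalb* and *Rapsn* are expressed in skeletal muscle. The spiral ganglion, muscle, and bone and marrow markers moved between the ages as well, and their part in these rises was not tested. Skeletal muscle markers, a list that also holds *Pvalb*, were called higher at P18 for 9 of 9 genes in Tg/Tg and for 6 of 9 in WT. The median change of that list was 2.44 in Tg/Tg and 0.36 in WT, where *Pvalb* had its highest change (1.29).

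**Figure D3:**
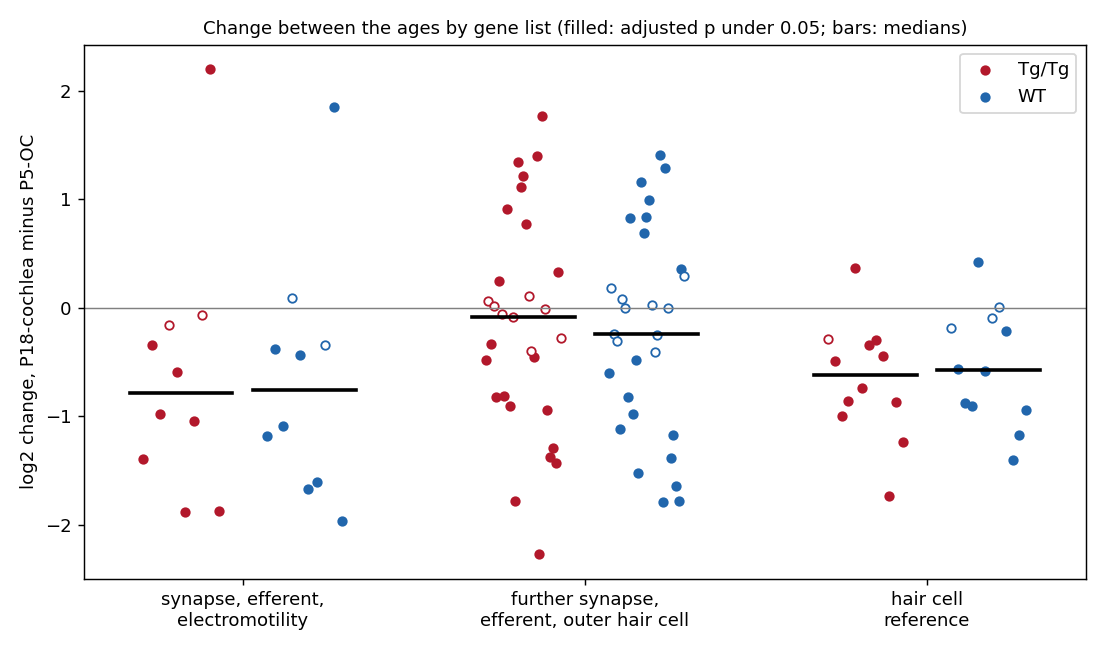
Log2 change from limma, P18-cochlea minus P5-OC (y axis), of each gene in 3 lists (x axis), for Tg/Tg and WT side by side, with filled points for an adjusted p under 0.05 and bars at the medians. Medians are -0.78 in Tg/Tg and -0.76 in WT for the 10 genes, -0.08 in Tg/Tg and -0.24 in WT for the 29 further genes, and -0.61 in Tg/Tg and -0.57 in WT for the 12 hair cell genes.

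The 10 genes did not vary alike among the P5 arrays. *Otof*, *Chrna9*, *Chrna10* and *Rasd2* were all lower in replicates 1 and 2 than in replicates 3 to 5, without overlap, in both genotypes. The share of all probesets that separated so was not counted, and the pattern is not particular to these genes. Among the further and the hair cell genes, *Kcna10*, *Nrxn3*, *Calb1*, *Gipc3*, *Lmod3*, *Myo7a*, *Atoh1* and *Pcdh15* did the same. *Kcnma1* ran the other way without overlap, and the remaining genes of these lists overlapped in Tg/Tg, in WT or in both. *Chrna10* averaged 7.32 in Tg/Tg replicates 1 and 2 and 8.18 in Tg/Tg replicates 3 to 5, and 7.47 and 8.18 in the same sets of WT. *Rasd2* averaged 7.44 and 8.31 in these sets of Tg/Tg, and 7.46 and 8.33 in those of WT. *Otof* averaged 7.99 and 8.61 in Tg/Tg, and 8.13 and 8.68 in WT. *Ocm* ran the other way in Tg/Tg (11.19 in replicates 1 and 2 and 10.22 in replicates 3 to 5), while in WT (10.66 and 10.52) the sets overlapped, replicate 1 alone being high at 11.05. *Slc26a5* averaged 8.92 and 8.53 in these sets of Tg/Tg, without overlap, and 8.83 and 8.69 in those of WT, with overlap. Replicate numbers mark no batch in the labels, and these sets were formed after the data were seen, so no test is given. Bone and marrow markers had a mean of 8.16 to 8.52 in replicates 1 and 2 and of 7.36 to 7.53 in replicates 3 to 5, and the hair cell genes 7.04 to 7.16 and 7.18 to 7.41. The bone genes *Ibsp* (SD 1.37 in P5 Tg/Tg, 0.90 in P5 WT) and *Sp7* (1.23 and 0.82) had the largest spread of the first list. The marrow genes *S100a8* (0.37 and 0.24) and *Mpo* (0.11 and 0.21) had little. The part of both lists in this pattern was not tested.

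**Figure D4:**
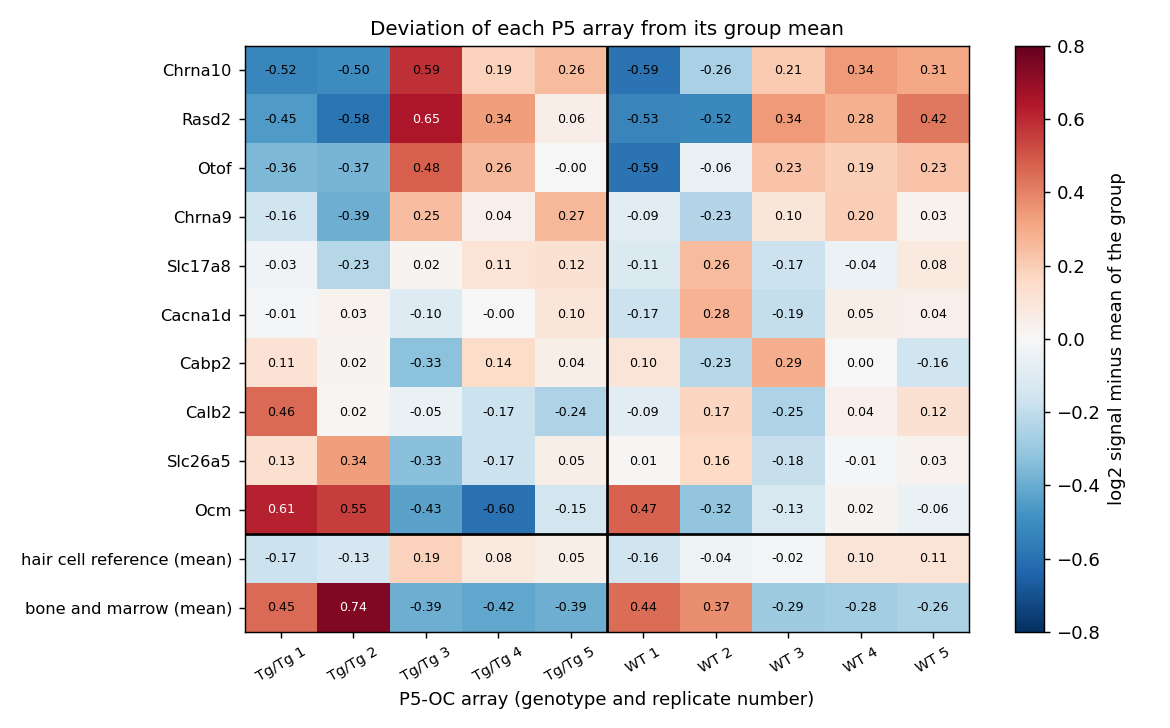
Log2 signal minus the group mean (colour and numbers) of the 10 genes, and of the means of the hair cell and the bone and marrow lists (rows), on the 10 P5 arrays by genotype and replicate (columns). *Chrna10*, *Rasd2* and *Otof* are low in replicates 1 and 2 of both genotypes, where the mean of the bone and marrow list is high.

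As deviations from group means over the 10 P5 arrays, *Otof* and *Chrna10* correlated at 0.95, *Chrna10* and *Rasd2* at 0.95, *Otof* and *Rasd2* at 0.93 and *Chrna9* and *Chrna10* at 0.86. *Ocm* correlated with *Otof* at -0.84, *Slc26a5* with *Rasd2* at -0.82, and *Slc26a5* with *Ocm* at 0.66. *Cacna1d* correlated at 0.01 with *Otof* and -0.04 with *Chrna10*, at 0.53 with *Slc26a5* and at 0.70 with *Slc17a8*. These Pearson coefficients are a description of 10 arrays, which include the replicate sets above, and no p is given. Over all 16 arrays and 19936 other genes, the genes most like *Otof* were *Ddit4*, *Ttyh1* and *Pcyt1b* (each 0.98) and *Cadps2* and *Klhl14* (each 0.97). Those most like *Slc26a5* were *Ttc39b* and *Rxfp2* (each 0.93), *Tmem88b* (0.92), *Rorb* (0.91) and *Ptchd4* (0.90). For *Ocm*, looked up after the pattern was seen, they were *Lcn2* (0.94), *Retreg1* and *Bcan* (each 0.92), and *Tnmd* and *Slc44a1* (each 0.89).

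The promoters of *Chrna10* and *Slc26a5* are shown as a pair of genes that moved in opposite directions among the P5 arrays. RefSeq promoters (GRCm38.p6) matched 8 of the 10 genes, and each stretch holds the 250 bases before the start of the gene, 5′ to 3′ on the minus strand, at chr7:102116714-102116963 and chr5:21865605-21865854. Capitals mark GGGAA, the core that Ikaros family factors such as helios bind, or its reverse complement TTCCC.
Chrna10: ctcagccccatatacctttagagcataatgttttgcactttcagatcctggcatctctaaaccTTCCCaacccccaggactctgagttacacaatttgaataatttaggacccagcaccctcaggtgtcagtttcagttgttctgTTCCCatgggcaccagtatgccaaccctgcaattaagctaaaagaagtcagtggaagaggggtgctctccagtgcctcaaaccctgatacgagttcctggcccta
Slc26a5: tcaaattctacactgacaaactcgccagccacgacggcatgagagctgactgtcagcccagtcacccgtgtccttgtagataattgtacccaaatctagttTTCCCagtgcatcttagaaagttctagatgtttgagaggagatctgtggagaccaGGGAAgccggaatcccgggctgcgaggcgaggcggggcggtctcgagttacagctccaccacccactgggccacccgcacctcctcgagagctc
Each holds the core 2 times, and 56.2% of 32851 promoters of the same length hold it at least once on either strand. The share that holds it 2 times was not counted. The E-box CAGCTG, which does not overlap that core, occurs in neither and in 13% of all promoters. Such matches describe letters only.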

How the data were processed

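Total RNA of the 16 samples was hybridised to Affymetrix MoGene 1.0 arrays. The values as deposited are log2 signals, normalized by the authors, of 34760 probesets (2.09 to 13.72, none missing). The background correction, normalization and probe summary are not given in the sources used here, apart from limma, and nothing was renormalized for the main results. Array medians were 6.33 to 6.36 at P18 and 6.51 to 6.63 at P5. The number of arrays limits the precision.

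The platform table names 1 gene for 21640 probesets, several for 1321 and none for 11799, and the brightest probeset stood for a gene. Groups followed the sample names. All arrays entered 1 fit with 4 group means with limma 3.58.1 under R 4.3.3 (lmFit, then eBayes, which added 3.23 degrees of freedom to the 12 of the residuals). There were 5 two-sided contrasts: genotype at each age, their difference, and P18 minus P5 in each genotype. Benjamini-Hochberg adjustment took in every probeset of a contrast, a gene was called at an adjusted p under 0.05 with no fold limit, and no probeset was filtered out. The fit was tested on simulated data, where it found 41.2% of 1.5-fold genotype changes at P18 and 69.7% at P5. Of 2-fold changes it found 83.9% at P18 and 92.3% at P5.

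The members and lists were chosen with earlier results of these data known. All 10 members are named throughout. For the further list, the rule took the 4 largest rises and falls among called genes in each age contrast, and for *Otof* and *Slc26a5* the 5 genes most alike. Marker lists were used for supporting cells, spiral ganglion, cerebellar and cochlear nucleus neurons, Schwann cells, skeletal muscle, bone and marrow, and Y-linked genes. Supporting cell markers had a mean of 9.39 to 9.44 in P18 Tg/Tg, 9.29 to 9.31 in P18 WT, 9.87 to 10.14 in P5 Tg/Tg and 9.92 to 10.11 in P5 WT, and none of 10 was called for genotype. Y-linked genes were high on 1 of 5 Tg/Tg and 4 of 5 WT arrays at P5 and intermediate at P18 (7.65 to 7.66 in Tg/Tg, 7.22 to 7.34 in WT). The alternatives tried were array weights, an intensity trend, separate fits per age, a replicate block, quantile normalization, removal of the dimmest 50% of probesets, named probesets only, the mean of a gene's probesets, the Y-linked level or the P5 replicate sets as a term, values relative to the hair cell genes, a fold change of at least 2, and each array left out. The omission of P5 replicates 1 and 2 was added after the data were seen. Figures used matplotlib 3.10.9 in Python 3.11.15.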

Additional observations from a re-analysis of the deposited data

Results flagged for a closer look

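Of the 20 sets of 5 P5 arrays (10 genes in 2 genotypes), 1 held an array far from the others. *Cabp2* had a log2 signal of 6.84 in Tg/Tg replicate 3 of the P5-OC, where the other 4 Tg/Tg arrays gave 7.19 to 7.31, and the gap to the nearest of them was 0.745 of the group's range. Chance alone flags about 1 in 20 such groups. The arrays of P5 WT ran from 6.83 to 7.35 for this gene.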

How the results depend on the processing

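For genotype, the count of the 10 genes called, 0 in each contrast, became 1 at P18 with separate fits per age and with array weights (*Slc26a5*), 1 for the difference between the ages with array weights (*Slc26a5*), and 1 at P5 without both P5 replicates 1 and 2 (*Calb2*). With one array left out it ranged from 0 to 1 at P5 and from 0 to 0 in the other genotype contrasts, and from 7 to 8 for each comparison of ages. Of the 29 further genes, array weights called 5 at P5 (*Rims1*, *Rims2*, *Rimbp2*, *Dnm1* and *Syt4*, all lower), 3 at P18 (*Kcnn2* and *Ikzf2* higher, *Bsn* lower) and 6 for the difference, and separate fits called 1 at P18 (*Calb1*, lower). Array weights also raised the share of all probesets called to 4.93% at P5, 6.27% at P18 and 9.3% for the difference. Separate fits raised it to 1.37% at P18, from 0.443% in the main fit. With one array left out these counts were 0 to 3 at P5, 0 in the other genotype contrasts, and 18 to 22 for each comparison of ages. The 3 at P5 (*Rimbp2*, *Rims1* and *Syt4*) came without Tg/Tg replicate 3, where 8.36% of all probesets were called, against 0.61% in the main fit. Without WT replicate 1 the count was 1 (*Rims2*), and 1.71% of all probesets were called. A fold limit of 2 left 5 of the 10 genes for Tg/Tg between the ages, and 10 of the further genes in each genotype.

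With each array's mean over the hair cell genes subtracted, which moved the median of all probesets between the ages to 0.55 in Tg/Tg and 0.48 in WT, the changes of *Slc17a8* (0.32 in Tg/Tg, 0.16 in WT) and *Chrna9* (0.07 in Tg/Tg, 0.11 in WT) turned positive, that of *Cabp2* became 0.51 in Tg/Tg and 0.64 in WT, and that of *Slc26a5* in Tg/Tg missed the threshold (-0.38, adjusted p = 0.057, limma). Quantile normalization of the deposited values over all arrays ended the calls of *Slc17a8* (-0.15 in Tg/Tg, -0.19 in WT) and *Chrna9* (-0.35 in Tg/Tg, -0.21 in WT). Without P5 replicates 1 and 2, the *Ocm* change in Tg/Tg turned to 0.32. *Slc17a8* in Tg/Tg lost its call without P18 Tg/Tg replicate 3 (-0.29, adjusted p = 0.057). The causes were not tested.

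Same-numbered arrays did not all deviate together. Of the 5 P5 pairs, 3 correlated over 0.1 (replicates 1, 2 and 4, at 0.29, 0.36 and 0.20) and the others at -0.11 and -0.22, and replicates 1 and 2 each correlated best with their own number across genotypes. The 3 P18 pairs lay between 0.00 and 0.07, and 1 of them correlated best with its own number. With the replicate block, 8 of the 10 genes were called between the ages in Tg/Tg and 7 in WT, where *Chrna9* was lost (-0.34, adjusted p = 0.081), and 0 for genotype.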
